A study of Mus musculus with 6 samples.

Results

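The mitochondrial ribosomal protein genes were taken as every entry of the deposited table whose name is Mrpl or Mrps followed by a digit and whose mean over the 6 libraries lay above 0. Among 22416 genes, 78 entries had such a name and 76 met the rule, 48 of them named Mrpl for the large subunit and 28 named Mrps for the small subunit. Mrpl23 and Mrps10 were listed at 0 in all 6 libraries and were not members. No difference between groups entered the choice. All 76 members passed the minimum of 1 FPKM (fragments per kilobase of coding sequence and 1000000 library reads) used for testing, as did 15129 genes in all.

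The mitochondrial ribosome translates the few mRNAs of the mitochondrial genome, which encode core subunits of the respiratory chain and of ATP synthase. Its RNAs come from the mitochondrial genome, whereas its proteins are encoded in the nucleus, made by cytosolic ribosomes and imported. The footprints described here are therefore those of cytosolic ribosomes on the mRNAs for these proteins. Oocytes carry a large maternal stock of mitochondria, which supplies ATP during meiotic maturation and passes to the embryo.

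Ribosome footprints, short pieces of mRNA covered by a ribosome and so spared by RNase I, were sequenced by Ribo-lite, a ribosome profiling protocol for small inputs, from pools of 500 mouse oocytes. The 3 groups of 2 libraries were WT_FGO, fully grown oocytes still in prophase with a germinal vesicle, WT_MII, controls that had reached metaphase II, and Treat_MII, metaphase II oocytes after treatment. All oocytes had the genotype WT and came from ovaries of females with a C57BL/6 background, 4 weeks old, taken 44 h after 5 IU of the gonadotropin PMSG. The labels give the last group's agent no name. The study's methods name it BYBX, a ligand of RNA G-quadruplexes (rG4s) that stabilizes them, with the solvent DMSO for controls. Maturation took place in culture. The study calls the libraries of a group biological replicates, and the labels do not say whether they came from separate animals, so p-values measure the spread between these libraries.

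Depth differed between the groups. The recovered library sizes were 94309 and 107251 reads in WT_FGO, 164972 and 230907 in WT_MII, and 331304 and 275604 in Treat_MII. No spike-in scaling is stated, so values are shares of a library and amounts per oocyte are not known. Less mRNA of a gene, fewer ribosomes on each mRNA and more footprints on other mRNAs cannot be told apart. All 10 oocyte markers had reads in every group, with summed levels of 37284 to 55730 FPKM in WT_FGO, 8810 to 9032 FPKM in WT_MII and 15659 to 15899 FPKM in Treat_MII. Of 11 granulosa or cumulus markers, 7 had reads in WT_FGO and 8 in each metaphase II group, and Tnfaip6 was listed at 0 throughout. Their summed level was 851 to 1642 FPKM in WT_FGO, 387 to 2060 FPKM in WT_MII and 297 to 335 FPKM in Treat_MII. Of 3 blood markers, Hbb-bs was at 0 in all libraries, and the list summed to at most 49.5 FPKM.

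The members were covered thinly and unevenly. Together they held 2346 reads over the 6 libraries, with a median of 15 reads per member, and 23.5% of their values were 0, compared with 31.3% over all tested genes. Of these reads, 50.4% lay on 8 members with at least 60 reads each. Another 30 members had 12 reads or fewer, and only 24 of the 76 had a read in every library. Their coding sequences were short, with a median of 602 bases against 1440 bases over the tested genes. At that length 1 read was worth 17.6 and 15.5 (WT_FGO), 10.1 and 7.20 (WT_MII) and 5.02 and 6.03 FPKM (Treat_MII). The floor was set at 3 reads per library. Floors and intervals cover counting error only, since PCR copies are not independent molecules.

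Overlaps and shared sequence limit what single members can show. The coding bases of 17 members overlapped an exon of another gene in GENCODE mouse release 21 (GRCm38, the assembly also called mm10), and whether the reads were counted by strand is not given in the sources used here. Thus 44.0% of the coding bases of Mrps30 lay opposite B430218F22Rik, and 40.6% of those of Mrpl24 lay opposite Rrnad1. Rrnad1 itself had no read except 4 in a single Treat_MII library. In addition, 30 members shared at least 1 word of 28 coding bases with a transcript of another gene, and 21 shared over 10% of their words. The share reached 100% for Mrps36 and 90.5% for Mrps33, with the annotated copies Mrps36-ps1 and Gm5776. The entries at 0, Mrpl23 and Mrps10, shared 80.7% and 56.8% of their words. Footprints of that length from such stretches cannot be assigned to 1 gene.

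The pooled footprint level of both subunits was lower at metaphase II than in fully grown oocytes. Summed over the 48 Mrpl genes, the level was 2605 and 3212 (WT_FGO), 1641 and 1348 (WT_MII) and 1381 and 1350 FPKM (Treat_MII). Summed over the 28 Mrps genes, it was 2447 and 2431 (WT_FGO), 960 and 1218 (WT_MII) and 1019 and 933 FPKM (Treat_MII). In both subunits the WT_FGO libraries lay above all 4 metaphase II libraries, and the WT_MII and Treat_MII libraries overlapped. For the large subunit the mean was 2908 ± 429 FPKM (SD, n = 2) in WT_FGO and 1494 ± 207 FPKM (SD, n = 2) in WT_MII, 1.95-fold lower. For the small subunit it was 2439 ± 11.3 FPKM (SD, n = 2) and 1089 ± 183 FPKM (SD, n = 2), 2.24-fold lower. No test was made of these sums.

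Pooled reads, without the length scaling, also placed WT_FGO above both metaphase II groups. The Mrpl genes took 1559 and 2005 reads per 1000000 library reads in WT_FGO, with exact 95% binomial intervals of 1317 to 1832 and 1746 to 2291. In WT_MII they took 1134 (977 to 1308) and 896 (779 to 1027), and in Treat_MII 963 (860 to 1074) and 907 (798 to 1027). The Mrps genes took 1548 (1307 to 1820) and 1613 (1382 to 1872) in WT_FGO, 709 (587 to 850) and 888 (770 to 1018) in WT_MII, and 670 (585 to 764) and 573 (487 to 670) in Treat_MII. For the Mrps genes both Treat_MII libraries lay below both WT_MII libraries in reads, 1.28-fold lower in the mean, whereas they overlapped in FPKM. The counting intervals of WT_FGO touched none of the metaphase II intervals in either subunit. The pooled large subunit genes exceeded the small subunit genes in every library, by 1.06 to 1.71 times in FPKM, as sums over 48 and 28 genes.

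**Figure D1:**
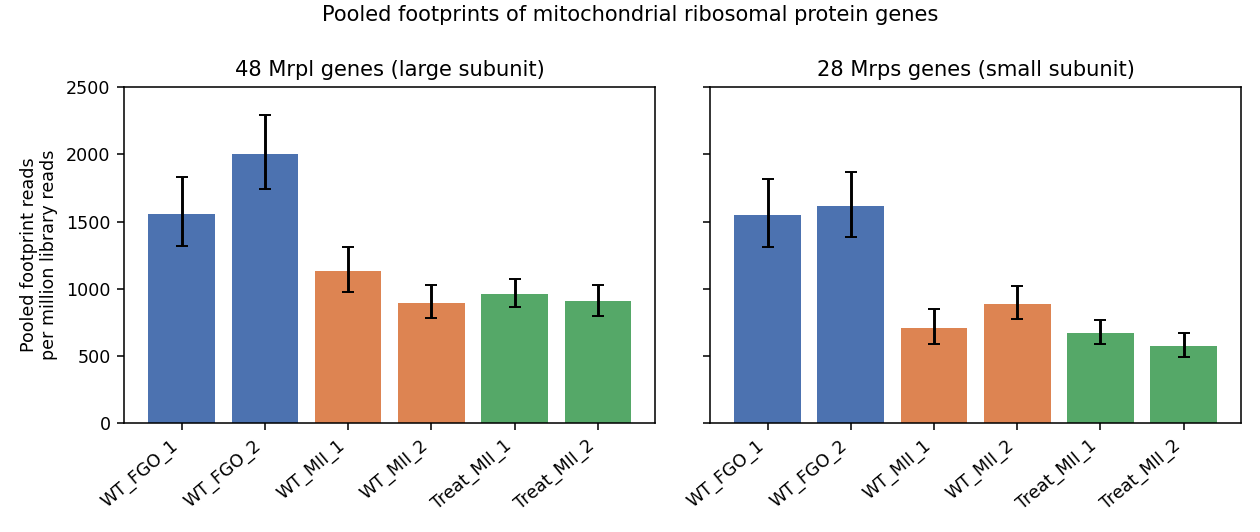
Footprint reads of the 48 Mrpl genes (left) and the 28 Mrps genes (right) per 1000000 library reads, 1 bar per library, with exact 95% binomial intervals as error bars. The WT_FGO bars stand between 1548 and 2005 and the metaphase II bars lie between 573 and 1134.

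The difference between the stages was larger in the members with few reads. The 68 members under 60 reads summed to 3331 and 4053 (WT_FGO), 1361 and 1147 (WT_MII) and 1274 and 1223 FPKM (Treat_MII). Their mean was 2.94-fold lower in WT_MII than in WT_FGO, with no overlap. The 8 members with at least 60 reads summed to 1721 and 1589 (WT_FGO), 1239 and 1419 (WT_MII) and 1126 and 1060 FPKM (Treat_MII), and their mean was 1.24-fold lower in WT_MII. Divided by gene name, these 8 went opposite ways. The 4 large subunit genes (Mrpl24, Mrpl46, Mrpl3 and Mrpl44) summed to 316 and 419 FPKM in WT_FGO against 678 and 514 FPKM in WT_MII, 1.63-fold higher with no overlap. They held 24 and 40 reads in WT_FGO, 95 and 100 in WT_MII, and 124 and 109 in Treat_MII. They thus reached 60 reads mostly through metaphase II, and the limit itself favours a higher level there. The 4 small subunit genes (Mrps30, Mrps14, Mrps25 and Mrps22) summed to 1405 and 1171 FPKM against 561 and 905 FPKM, 1.76-fold lower with no overlap. The protein of Mrps30, despite its name, sits in the large subunit in current structures. With Mrps30 counted there, the large subunit genes summed to 643 and 819 FPKM in WT_FGO against 898 and 812 FPKM in WT_MII, which overlapped, and to 587 and 593 FPKM in Treat_MII. The other 3 small subunit genes then summed to 1077 and 770 FPKM against 342 and 608 FPKM, still without overlap.

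A sum of reads gives the deeper metaphase II libraries more weight, so the split by 60 reads leans toward genes high in them. Split by mean FPKM, the 8 highest members were 1.45-fold lower in WT_MII and the other 68 were 2.82-fold lower. This second split was not divided by subunit. The same contrast between well and thinly covered genes was present outside the members. Over all tested genes, those under 60 reads (11771 genes) were 2.06-fold lower in pooled FPKM in WT_MII than in WT_FGO, and those with at least 60 reads (2706 genes) were 1.16-fold higher. A part of depth or of RNA quality in these differences was not tested.

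**Figure D2:**
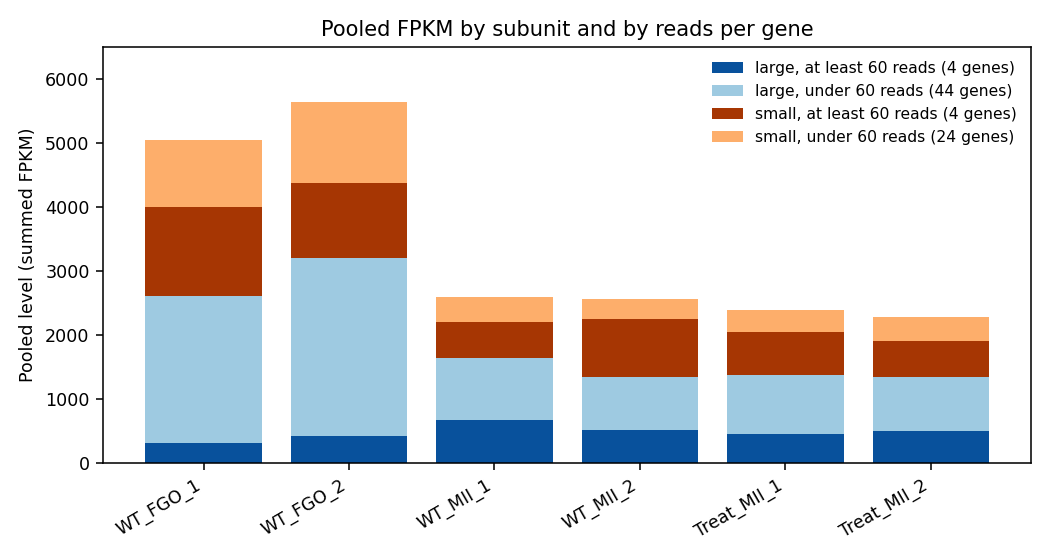
Summed FPKM of the 76 members in each library, divided by subunit and by whether a gene had at least 60 reads over the 6 libraries. The pale segments (68 members under 60 reads) shrink from 3331 and 4053 FPKM in WT_FGO to 1361 and 1147 FPKM in WT_MII, whereas the dark blue segment (4 genes named Mrpl) grows from 316 and 419 to 678 and 514 FPKM. These 4 genes reached 60 reads mostly through metaphase II libraries.

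Granulosa markers differed between the WT_FGO libraries. Inha, a subunit of inhibin, stood at 29.0 FPKM in the first WT_FGO library and 747 FPKM in the second, and Fshr, Foxl2 and Inhba were at 0 in the first. Other markers of the list went the other way, with Hsd17b1 at 729.5 FPKM in the first and 488 FPKM in the second and Cyp19a1 at 35.1 and 24.7 FPKM. Hsd17b1 also differed between the WT_MII libraries, at 1956 and 256 FPKM, and most of the higher sum of that group came from it. With the second WT_FGO library left out, the pooled log2 ratio of WT_MII to WT_FGO was −0.80 for the large subunit, compared with −0.96 with both libraries, and it was −1.17 for the small subunit, compared with −1.16.

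By origin, 44 members have a counterpart in the bacterial ribosome and 31 are specific to mitochondria. Mrps36 belongs to neither, since the protein is now assigned to a metabolic enzyme complex. The conserved members were 1.98-fold lower in WT_MII than in WT_FGO and the mitochondria-specific members 2.19-fold lower, in means of pooled FPKM. Both classes showed no overlap between the stages. In Treat_MII the conserved members summed to 1510 and 1427 FPKM against 1379 and 1537 FPKM in WT_MII, overlapping. The mitochondria-specific members summed to 890 and 844 FPKM against 1221 and 1030 FPKM, which was 1.30-fold lower with no overlap. Of this class, Mrps30, Mrpl46 and Mrpl52 summed to 708 and 593 FPKM in control and 208 and 249 FPKM in treated metaphase II oocytes. These 3 were picked after their values were seen. All were lower in treated oocytes, so a higher remainder was partly built in. Without them, the other 28 summed to 514 and 436 FPKM in controls and 682 and 596 FPKM after treatment, 1.35-fold higher without overlap. The median change was 0.40 over the mitochondria-specific and 0.18 over the conserved members.

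Member by member, 38 of the 76 did not overlap between WT_MII and WT_FGO, and few passed the test. At the members' lengths 1 read was worth several FPKM, so 0 against 1 read gives a large value in log2(FPKM + 1), as in Mrpl51 (−4.75). The change is the limma estimate on that scale. Its median over the 76 members was −1.40, compared with −0.44 over all tested genes, and was −1.67 for the Mrpl genes and −1.07 for the Mrps genes. Over the 8 members with at least 60 reads it was −0.07, compared with 0.23 over the 2706 tested genes with that many reads. At an adjusted p under 0.05, 2 members were higher and 2 lower, 2.63% in each direction, beside 3.67% and 3.09% of all tested genes. At an unadjusted p under 0.05, 2 were higher (2.63%) and 18 lower (23.7%), beside 9.64% and 13.1%. Both WT_MII libraries lay below both WT_FGO libraries for 34 members (44.7%), and above them for 4 (5.26%), beside 25.8% and 15.3% of all tested genes.

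The 4 members that passed the limma test in this comparison all rested on 3 reads or fewer per library. Mrpl50 and Mrps28 had 0 and 0 reads in WT_FGO and 2 and 2 in WT_MII, with adjusted p = 0.0272 and 0.048. Mrpl51 had 1 and 1 reads in WT_FGO and none in WT_MII, and Mrps12, the counterpart of the bacterial decoding protein S12, had 3 and 1 reads and none, both with adjusted p = 0.0396. In each case both groups were at or under the floor of 3 reads, so no fold is given. Treat_MII had 6 and 3 reads of Mrpl50, 1 and 2 of Mrps28, and none of Mrpl51 or Mrps12. Mrpl51 also shared 66.4% of its words of 28 bases with other genes, mainly Gm14017, so its reads may not belong to it. No call among these 4 was kept when either Treat_MII library was left out of the fit. That held for every call over all tested genes, so it is not particular to these members.

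**Figure D3:**
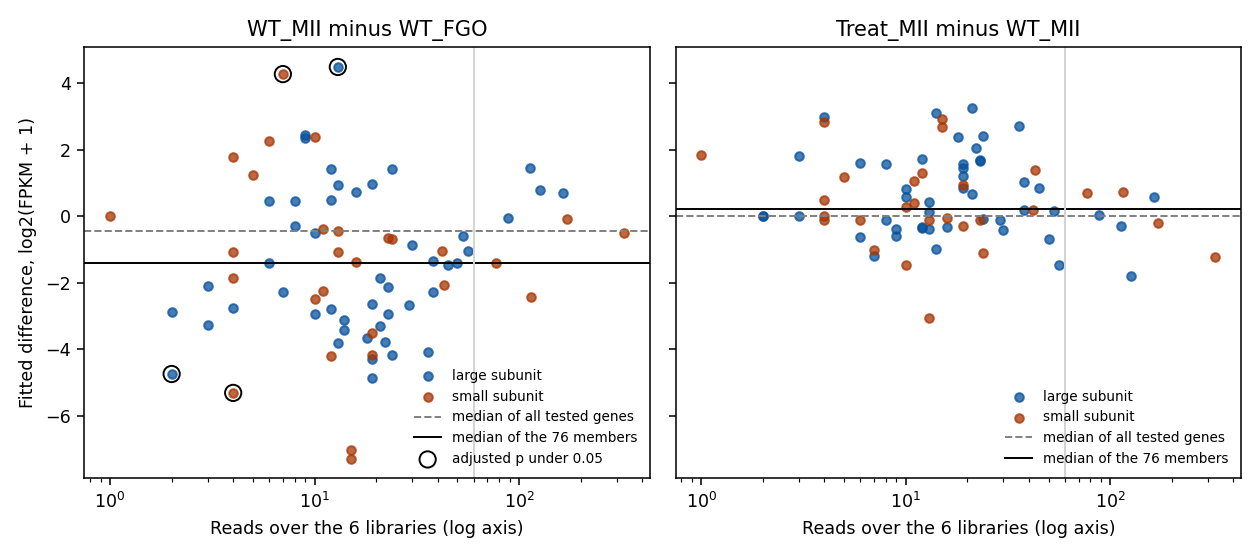
Fitted difference of each of the 76 members on the log2(FPKM + 1) scale against its reads over the 6 libraries, for WT_MII minus WT_FGO (left) and Treat_MII minus WT_MII (right). The grey vertical line marks 60 reads, circles mark adjusted p under 0.05, and the members' median (solid) lies at −1.40 on the left and 0.23 on the right, beside −0.44 and 0 over all tested genes (dashed).

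Mrps30 had the most reads of all members, 327. Its level was 328 and 401 (WT_FGO), 219 and 297 (WT_MII) and 132 and 87.6 FPKM (Treat_MII). The 3 groups did not overlap, with WT_FGO highest and Treat_MII lowest. The estimate for WT_MII against WT_FGO was −0.50 ± 0.36 (SE), with an adjusted p of 0.49 in limma.

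Mrps14, the counterpart of bacterial S14, was at 389 and 321 (WT_FGO), 236 and 467 (WT_MII) and 256 and 325 FPKM (Treat_MII). Its groups overlapped throughout, and its WT_MII libraries spanned those of both other groups.

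Mrps25, a protein specific to mitochondria, had the largest difference between the stages among the 8 members with at least 60 reads. It stood at 599 and 345 FPKM (29 and 19 reads) in WT_FGO, 82.7 and 84.4 FPKM (7 and 10 reads) in WT_MII, and 224 and 84.9 FPKM (38 and 12 reads) in Treat_MII. Both WT_MII libraries lay far below WT_FGO and just below Treat_MII. The mean was 5.65-fold lower in WT_MII than in WT_FGO (estimate −2.43 ± 0.55 SE, adjusted p = 0.0561 in limma). In the fit restricted to genes with at least 60 reads, chosen after the data were seen, the adjusted p was 0.0151. Mrps25 was the only 1 of the 8 members called in that fit, which called 27.5% of its 2706 genes higher and 18.8% lower. Mrps22, another mitochondria-specific protein, was at 88.6 and 104 (WT_FGO), 22.5 and 56.3 (WT_MII) and 58.9 and 57.3 FPKM (Treat_MII), with WT_FGO above the rest and an adjusted p of 0.201 for WT_MII.

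The order differed among large subunit genes with many reads, and Mrpl24 and Mrpl3 were lowest in WT_FGO. Mrpl24, the counterpart of bacterial L24 and an early assembly protein there, had 114 and 100 (WT_FGO), 149 and 206 (WT_MII) and 231 and 295 FPKM (Treat_MII). The 3 groups were ordered without overlap, opposite to Mrps30. WT_MII was 1.66-fold above WT_FGO (adjusted p = 0.309), and Treat_MII was 2.46-fold above it (adjusted p = 0.114 in limma). In the fit of genes with at least 60 reads the latter adjusted p was 0.0268. That limit was chosen after the data were seen, and Mrpl24 reached it mostly through metaphase II reads, so the smaller p is no added support. Its reads were 7 and 7 in WT_FGO, 16 and 31 in WT_MII, and 50 and 53 in Treat_MII. Mrpl3, the counterpart of L3 near the peptidyl transferase centre, was at 19.97 and 70.2 (WT_FGO), 85.6 and 130 (WT_MII) and 96.6 and 75.2 FPKM (Treat_MII). The first WT_FGO library held 2 reads, and both WT_FGO libraries lay below all others (adjusted p = 0.269 for WT_MII).

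Mrpl46 and Mrpl44 were unstable between libraries of a group. Mrpl46 was at 150 and 98.8 (WT_FGO), 371 and 117 (WT_MII) and 42.7 and 81.2 FPKM (Treat_MII). Mrpl44 was at 31.8 and 149 (WT_FGO), 72.8 and 60.7 (WT_MII) and 84.6 and 54.5 FPKM (Treat_MII). For Mrpl44 all groups overlapped, with the highest mean in WT_FGO. For Mrpl46 only Treat_MII stood apart, below the rest.

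Of the other large subunit members with the most reads, Mrpl52 was at 321 and 283 (WT_FGO), 117 and 179 (WT_MII) and 33.3 and 80.0 FPKM (Treat_MII). Mrpl28 was at 109 and 155 FPKM, 46.6 and 49.9 FPKM, and 27.1 and 32.5 FPKM in the same order. Both were highest in WT_FGO and lowest in Treat_MII, with no overlap, on 4 to 15 reads per library. Mrpl35 was at 75.6 and 93.1 (WT_FGO), 17.3 and 49.4 (WT_MII) and 51.7 and 56.9 FPKM (Treat_MII), so WT_FGO was again highest. Mrpl4 ranged from 16.7 to 92.1 FPKM with overlap between all groups.

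**Figure D4:**
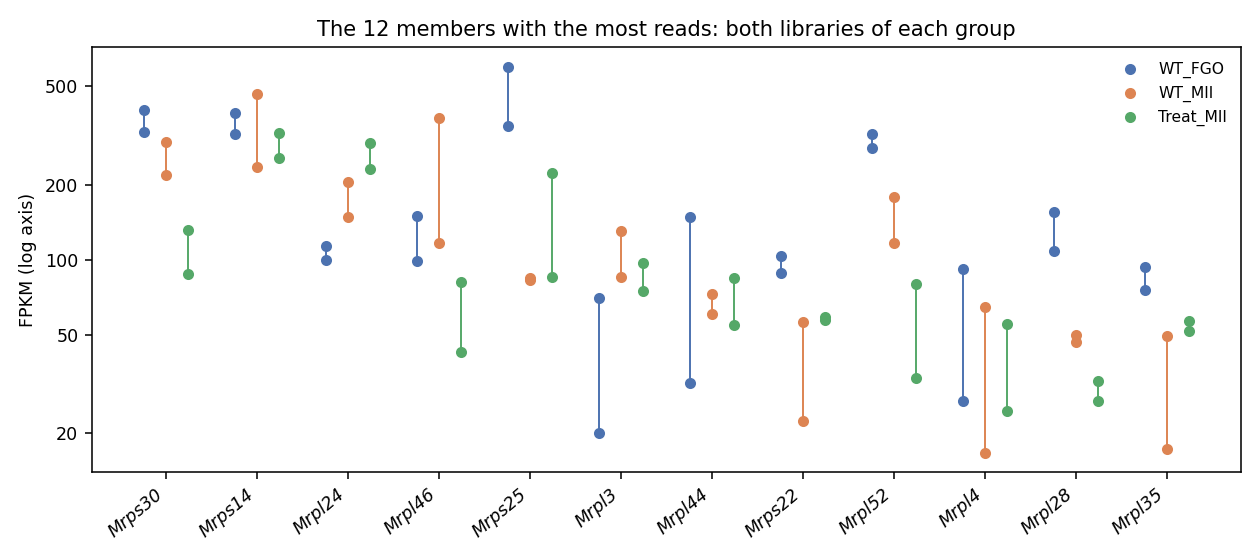
FPKM (log axis) of the 12 members with the most reads, with both libraries of each group as points joined by a line. Mrps30, Mrpl52 and Mrpl28 step down from WT_FGO to Treat_MII, Mrpl24 steps up, and Mrps14, Mrpl44 and Mrpl4 overlap between groups.

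Mrps6 and Mrps33 had no read in WT_MII. Mrps6, the counterpart of bacterial S6, had 4 and 6 reads in WT_FGO (113 and 149 FPKM), none in WT_MII, and 5 and 0 in Treat_MII. Mrps33 had 5 and 5 reads in WT_FGO (167 and 147 FPKM), none in WT_MII, and 0 and 5 in Treat_MII. Against the floor of 3 reads per library, WT_MII was at least 3.15-fold lower for Mrps6 and at least 3.20-fold lower for Mrps33, with adjusted p = 0.0681 and 0.0722 in limma. The 2 Treat_MII libraries disagreed in both genes. For Mrps6, 49.3% of the coding bases also lie in an exon of Gm49711 on the same strand, which was at 0 in all libraries.

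The 3 genes named Mrps18 encode related proteins with different places, of which the protein of Mrps18a belongs to the large subunit. Mrps18a was at 108 and 94.98 (WT_FGO), 30.9 and 0 (WT_MII) and 20.5 and 0 FPKM (Treat_MII). Mrps18c was at 69.5 and 122 FPKM, 66.2 and 0 FPKM, and 26.4 and 7.92 FPKM. Both were highest in WT_FGO, with adjusted p = 0.299 and 0.365 for WT_MII. Mrps18b stayed between 7.92 and 24.5 FPKM, on 1 to 4 reads per library, with overlap between all groups. Mrps36 had 1 read in all, in Treat_MII. With Mrps30 and Mrps18a counted in the large subunit and Mrps36 left out, the pooled change differed from that by name by less than the spread between libraries, except for the small subunit in Treat_MII against WT_FGO.

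For each subunit by itself the pooled FPKM of Treat_MII and WT_MII overlapped, but in reads the Mrps genes did not, as given above. The mean of the Mrpl genes was 1366 ± 21.8 FPKM (SD, n = 2) in Treat_MII and 1494 ± 207 FPKM (SD, n = 2) in WT_MII, a ratio of 0.914. That of the Mrps genes was 976 ± 60.9 and 1089 ± 183 FPKM (SD, n = 2 each), a ratio of 0.896. The direction for the Mrps genes rested on Mrps30. Its mean was 258 FPKM in WT_MII and 110 FPKM in Treat_MII, a larger gap than that of the whole sum. Mrps14, with means of 352 and 290 FPKM, had a smaller gap than the sum. Mrps30 and Mrps14 were picked after their values were seen. Both had a lower mean in Treat_MII, so a higher remainder was partly built in. Without them, the other 26 summed to 631 and 521 FPKM in treated against 504 and 454 FPKM in control oocytes, 1.20-fold higher without overlap. Against their 1730 and 1709 FPKM in WT_FGO, WT_MII was then 3.59-fold lower. For single pairs of libraries the log2 ratio ran from −0.28 to 0.03 for the large subunit and from −0.39 to 0.09 for the small subunit. The sum over all 76 members did not overlap, with 2400 and 2283 FPKM in treated against 2600 and 2566 FPKM in control oocytes, 1.10-fold lower. The 8 members with at least 60 reads were 1.22-fold lower, also without overlap. Among all tested genes, those under 60 reads were 1.09-fold lower in pooled FPKM in treated oocytes. Those with at least 60 reads were 1.07-fold higher, both without overlap. These sums were not tested. The members' median change was 0.23, beside 0 over all tested genes.

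None of the 76 members passed an adjusted p of 0.05 in limma for Treat_MII against WT_MII, nor did any tested gene, so the background was 0% in both directions. At an unadjusted p under 0.05, 2 members were higher (Mrpl9 and Mrpl11) and 3 lower (Mrps30, Mrpl46 and Mrpl52), beside 3.8% and 2.02% of all tested genes. Libraries did not overlap for 10 members higher in Treat_MII (13.2%) and 8 lower (10.5%), beside 16.2% and 15.6% of all tested genes.

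The 3 members with the smallest p in this comparison were Mrps30, Mrpl9 and Mrpl52. Mrps30 was 2.35-fold lower in Treat_MII (estimate −1.24 with a 95% interval of −2.12 to −0.36, adjusted p = 0.766). Mrpl52 was 2.61-fold lower (−1.47, interval −2.72 to −0.22, adjusted p = 0.836). Mrpl9, the counterpart of bacterial L9, rested on 1 and 0 WT_MII reads against 10 and 5 Treat_MII reads (6.48 and 0 against 32.2 and 19.4 FPKM), also with adjusted p = 0.836. In WT_FGO it was at 22.7 and 29.9 FPKM, so only WT_MII stood apart. Oaz3, which overlaps 16.8% of the coding bases of Mrpl9 on the other strand, held 2 and 1 WT_MII reads and none elsewhere.

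Against WT_FGO, the treated oocytes also showed lower pooled levels. The contrast shares WT_FGO with the maturation contrast, so the values are given side by side and not as a second observation. The Mrpl genes were 2.13-fold lower in Treat_MII and 1.95-fold lower in WT_MII, and the Mrps genes 2.499-fold and 2.24-fold lower. The median change of the members was −0.95 in Treat_MII, beside −0.53 over all tested genes. Mrpl50 was called higher in limma (adjusted p = 0.0271, with 0 reads in WT_FGO) and 0 members lower, 1.32% and 0% of members beside 2.86% and 0.998% of all tested genes. At an unadjusted p under 0.05, 3 were higher (3.95%; Mrpl24, Mrpl50 and Mrps28) and 9 lower (11.8%), beside 9.5% and 10.4%. Libraries did not overlap for 5 members higher (6.58%) and 34 lower (44.7%), beside 16.6% and 28.9%.

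The members nearest to the threshold in that contrast were lower in treated oocytes. Mrpl51 (adjusted p = 0.0529) and Mrps12 (0.0533) rested on the few WT_FGO reads described above. Mrpl52 was 5.33-fold lower (adjusted p = 0.0591), Mrps30 3.32-fold lower (0.0616) and Mrpl28 4.43-fold lower (0.0645), all in limma. In the fit of genes with at least 60 reads, which includes Mrps30 but neither Mrpl52 nor Mrpl28, Mrps30 (estimate −1.74, adjusted p = 0.0132), Mrps25 (−1.72, 0.0481) and Mrpl24 (1.28, 0.0268) passed. That fit called 27.1% of its genes higher and 15.3% lower, so 1 higher and 2 lower of 8 members were near its background. Mrpl24 entered it mostly through metaphase II reads, as given above.

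Because the ligand acts on rG4s, the mRNAs of the members were searched for 4 runs of at least 3 G joined by loops of 1 to 7 bases, on the transcript strand, in the longest coding transcript of GENCODE release 21. A match describes the letters and is not a measured rG4. Of the 76 members, 4 held a match in the 5′-UTR (5.26%), 0 in the coding sequence and 6 in the 3′-UTR (7.89%). Over the 14801 tested genes with such a transcript the shares were 6.95%, 4.54% and 10.5%. The members' regions were shorter, with medians of 91, 585 and 410 bases against 161, 1407 and 854 bases. The 4 matches in 5′-UTRs are printed because they lie on the path of the scanning ribosome, and that of Mrpl51 because the gene passed a test. They are given 5′ to 3′ on the transcript strand as DNA letters of GRCm38, with the runs of G in capitals.
Mrpl40, 5′-UTR, exon 1, chr16:18876664-18876689, minus strand: GGGGcGGGGctgcgtcGGGGGcGGGG
Mrpl47, 5′-UTR, exon 1, chr3:32737035-32737056, minus strand: GGGGaGGGctaaGGGagccGGG
Mrps12, 5′-UTR, exon 1, chr7:28741676-28741702, minus strand: GGGcaaGGGcggttGGGtccttGGGGG
Mrps7, 5′-UTR, exon 1, chr11:115603926-115603951, plus strand: GGGcGGGGGcGGGGcccgcatGGGGG
Mrpl51, 3′-UTR, exon 3, chr6:125195972-125195999, plus strand: GGGGagaacaGGGGagtGGGGatctGGG

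Of the genes with a 5′-UTR match, Mrps7 was at 29.2 and 51.4 (WT_FGO), 25.0 and 23.9 (WT_MII) and 16.6 and 29.99 FPKM (Treat_MII). Mrpl40 was at 34.3 and 90.5 FPKM, 29.4 and 7.01 FPKM, and 19.5 and 29.4 FPKM, and Mrpl47 at 28.1 and 37.0 FPKM, 56.1 and 0 FPKM, and 27.9 and 19.2 FPKM. In all 3 the Treat_MII libraries overlapped those of WT_MII. Over the 10 members with a match in any region, the median change in Treat_MII against WT_MII was 0, with 4 above and 4 below 0. Over the 66 without a match it was 0.34, and over all tested genes −0.05 with a match and 0 without.

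Other genes of mitochondrial translation were read beside the members. The list had 41 genes in the table, of which 39 were tested, and none passed an adjusted p of 0.05 in limma in any of the 3 comparisons. At an unadjusted p under 0.05, 1 was higher and 4 lower in WT_MII against WT_FGO, 2 and 1 in Treat_MII against WT_MII, and 2 and 3 in Treat_MII against WT_FGO. In the contrasts with WT_FGO these shares (2.56% and 10.3%, 5.13% and 7.69%) lay below those of all tested genes given above. The 5 ribosomal proteins with other names (Dap3, Ptcd3, Chchd1, Aurkaip1 and Gadd45gip1) summed to 363 and 319 (WT_FGO), 162 and 186 (WT_MII) and 149 and 161 FPKM (Treat_MII). They were 1.96-fold lower in WT_MII than in WT_FGO in FPKM with no overlap. In reads per 1000000 they overlapped, at 212 and 317 in WT_FGO and 158 and 230 in WT_MII. The 10 initiation, elongation, release and recycling factors summed to 270 and 248 FPKM, 274 and 275 FPKM, and 235 and 220 FPKM, so WT_MII was not below WT_FGO in the sum. This rested on Gfm1. Without it the other 9 summed to 251 and 174 FPKM in WT_FGO and 131 and 116 FPKM in WT_MII, 1.72-fold lower without overlap, and the median change of the 9 tested factors was −1.11. Gfm1, the elongation factor that moves the ribosome along the mRNA, was at 18.8 and 74.5 (WT_FGO), 143 and 160 (WT_MII) and 130 and 134 FPKM (Treat_MII) (adjusted p = 0.144 for WT_MII). The difference between these factors and the members was not tested.

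The 22 assembly and rRNA modification factors summed to 572 and 399 (WT_FGO), 239 and 285 (WT_MII) and 297 and 346 FPKM (Treat_MII), 1.86-fold lower in WT_MII with no overlap. Their median change was 0.017 over 21 tested, compared with −0.44 over all tested genes, so the lower sum was not shared across the list. The GTPase Noa1 accounted for 102 and 135 (WT_FGO), 20.4 and 52.1 (WT_MII) and 47.9 and 66.3 FPKM (Treat_MII) (adjusted p = 0.129 for WT_MII). The 4 genes for mRNA stability and membrane insertion (Lrpprc, Slirp, Taco1 and Oxa1l) summed to 122 and 254 FPKM, 77.4 and 72.7 FPKM, and 36.5 and 62.0 FPKM, lowest in Treat_MII. Slirp, which stabilizes mitochondrial mRNAs with Lrpprc, was listed at 57.5 and 126 (WT_FGO), 0 and 0 (WT_MII) and 0 and 29.5 FPKM (Treat_MII) (adjusted p = 0.0773 for WT_MII).

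Libraries of a group agreed less for the members than the pooled sums do. Genes are not independent replicates. Across the 76 members, Spearman's rho for log2(FPKM + 1) between both libraries of a group was 0.58 in WT_FGO, 0.31 in WT_MII and 0.54 in Treat_MII. Over all tested genes it was 0.50, 0.61 and 0.73. The SD of the members' log2 differences between both libraries was 2.79, 3.02 and 2.10, and over the 8 members with at least 60 reads it was 1.09, 0.91 and 0.72. The pooled sums of all 76 members differed by far less, with 5051 and 5643 (WT_FGO), 2600 and 2566 (WT_MII) and 2400 and 2283 FPKM (Treat_MII).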

How the data were processed

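The deposited values were FPKM, which the authors computed per library from reads placed on mm10. The submitters' processing notes name cutadapt 1.14, Bowtie2 2.2.2 and STAR 2.5.3a. How reads were counted, on which annotation, and whether molecular identifiers were used is not given in the sources used here. Of entries with a repeated name, 26 were left out. FPKM times the union coding length in GENCODE mouse release 21 gave whole reads (tolerance 0.02) in all libraries for 98.4% of 21375 genes and for every member. Genes averaging 1 FPKM or more were tested with limma 3.58.1 (R 4.3.3; lmFit, eBayes with trend) on log2(FPKM + 1), all 6 libraries in a single fit, adjusted by Benjamini-Hochberg over all genes tested. Count models were not run on FPKM. The script was checked on simulated data. Genes named are the 12 members with the most reads, called members, the 3 with the smallest p where fewer were called, Mrps18a, Mrps18b, Mrps18c, Mrps30 and Mrps36, and members absent from a group and over the floor in both libraries of another. Mrpl11 was named after its values were seen. Mrpl40, Mrpl47, Mrps7 and the genes beside the members follow from the motif and pathway lists. Members and lists were chosen with earlier results of these data known. Alternatives were another pseudocount, other filters, 3 other scalings, a replicate term, fewer groups, no trend and leaving out each library.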

Additional observations from a re-analysis of the deposited data

How the results depend on the processing

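The call counts depended on most settings. For WT_MII against WT_FGO, where 2 members were higher and 2 lower, the counts were 1 and 2 with no filter on low values (526 and 416 of all 16548 tested). They were 2 and 0 with centring on the median log2 ratio (758 and 305 of 15129) and 2 and 1 with quantile normalization (686 and 402 of 15129). With only the 2 groups compared they were 0 and 0, as over all 15129 genes. With no mean-variance trend 1 member was higher, beside 188 higher and 140 lower of 15129. Among genes with at least 60 reads they were 0 and 1, beside 745 and 509 of 2706. A 2-fold ratio with no test gave 8 and 43 members. Its share over all tested genes was not computed in any contrast, so its counts are no result about the members. For Treat_MII against WT_MII that ratio gave 13 higher and 10 lower. For Treat_MII against WT_FGO, where 1 was higher and 0 lower, it gave 8 and 41. In that contrast 0 were higher with only the 2 groups (31 of all 15129 tested genes) or no trend (56 of 15129). With a minimum of 5 FPKM 3 were lower (232 of 9522), with quantile normalization 2 (171 of 15129) and with at least 60 reads 2 (413 of 2706). The limit of 60 reads was chosen after seeing the data. The cause of these shifts was not tested.

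Replicate numbers were not taken as pairs, since same-numbered libraries deviated together with r of only 0.034, 0.018 and 0.019 over 2706 genes. With the replicate block, WT_MII against WT_FGO had 1 member higher and 1 lower, beside 453 and 335 of all 15129 tested genes. Treat_MII against WT_FGO then had 0 members higher, beside 363 of 15129 genes.

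Centring moved the median of all tested genes from −0.44 to 0.02 for WT_MII against WT_FGO. The members' median was −0.94 with centring and −0.073 with at least 60 reads. For Treat_MII against WT_MII it was 0.32 with a pseudocount of 0.1, 0.17 with a minimum of 5 FPKM, 0.12 with centring, 0.35 with quantile normalization, 0.19 with a common total, and −0.087, reversed, with at least 60 reads. For Treat_MII against WT_FGO it was −0.61, −0.55 and −0.50 with centring, quantile normalization and at least 60 reads.

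The genes named Mrpl with at least 60 reads reached that limit mostly through metaphase II reads. Among such members the pooled log2 ratio of the genes named Mrpl reversed, to 0.70 for WT_MII and 0.39 for Treat_MII against WT_FGO. It was −1.50 and −1.52 among members under 60 reads. Without its highest member, Mrpl24, it was −1.35 for Treat_MII. For the small subunit genes it was −0.81 and −1.07 with at least 60 reads, −1.69 and −1.66 under 60 reads, and −1.50 and −1.60 without Mrps14. With Mrps30 counted in the large subunit, the members with at least 60 reads gave 0.22 for WT_MII and −0.31, not reversed, for Treat_MII against WT_FGO, −0.53 for Treat_MII against WT_MII, and −0.88 for the small subunit in Treat_MII against WT_FGO. Without Mrps30 and Mrps14 the small subunit genes gave −1.84, 0.27 and −1.58 for WT_MII against WT_FGO, Treat_MII against WT_MII and Treat_MII against WT_FGO. Both settings were chosen after seeing the data. With Mrps30 and Mrps18a moved and Mrps36 left out it was −1.22 for Treat_MII.

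Leaving out 1 library assumes that the lone library varies like the others. Ranges of call counts are left out, since the calls over all tested genes also shifted with the library left out. For WT_MII against WT_FGO the members' median ran from −1.91 to −0.77, and the pooled ratios from −1.11 to −0.80 (large) and −1.35 to −1.001 (small). No member was called without either Treat_MII library. For Treat_MII against WT_MII it gave 0 to 2 higher (2 without the first Treat_MII library), 0 lower, a median of 0 to 0.48, and −0.26 to 0.02 and −0.32 to 0.02. For Treat_MII against WT_FGO it gave 0 to 3 higher, 0 to 4 lower, a median of −1.24 to −0.70, and −1.23 to −0.93 and −1.39 to −1.26. The 25 named gene differences with an unadjusted p under 0.05 in the limma fit as reported were followed through 382 alternatives on the same libraries. Of these, 322 stayed on their side of the threshold, 39 lost it, 21 gained it and 0 reversed. That choice of differences made a reversal unlikely. Most of these differences were not calls, and all 39 losses fell on those that were. In WT_MII against WT_FGO, Mrps28 lost its call in 10 of 15 alternatives, Mrpl51 in 9, Mrps12 in 8 and Mrpl50 in 5. In Treat_MII against WT_FGO, Mrpl50 lost it in 7 of 15.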
